A study of Mus musculus with 4 samples.

Results

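The Ovol, Zeb, Snai and Twist genes encode 10 transcription factors that set the balance between epithelial and mesenchymal states, and each was read by 1 probe set on whole-transcript arrays of mouse fetal skin. They were picked by gene symbol, as the probe sets whose single annotated symbol is one of the 10, out of 19938 genes on the arrays. There were 2 control arrays and 2 arrays of Ovol2 BT skin, all from late fetal skin at E16.5, each made from RNA of 2 mice labelled female. Ovol2 BT embryos carried a transgene for Flag-tagged Ovol2 under a tetracycline-responsive promoter (TRE-Ovol2-Flag) together with K5-tTA, a transactivator under the keratin 5 promoter, which is active in basal keratinocytes. Control embryos, per the treatment protocol, had TRE-Ovol2-Flag alone or were wild type, so no array held the transactivator alone. The labels give the strain as CB6F1 for controls and FVB/N for Ovol2 BT, while the growth protocol speaks of littermates, and the description of every sample names both transgenic genotypes. Genotype and strain as labelled cannot be told apart. The design text says that the age was chosen because skin morphology still differed little, so that primary changes could be sought.

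Ovol proteins are C2H2 zinc finger repressors that hold cells in an epithelial state. The Zeb, Snai and Twist proteins are repressors and activators best known for driving epithelial-mesenchymal transition, and in skin they are also normal products of dermal, neural crest-derived and other mesenchymal cells. Ovol and Zeb genes are known to repress each other, and microRNAs of the miR-200 family act on the same switch by silencing Zeb1 and Zeb2. Whole skin was measured, so in these samples fewer cells of a type and less RNA per cell cannot be told apart, and a change in keratinocytes alone is diluted by the dermal signal of the same gene.

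Of the 4 arrays, Ovol2 BT replicate 2 was least like the rest. The controls correlated at 0.983 (Pearson's r) and the Ovol2 BT arrays at 0.930 across 14953 tested genes, which are not independent replicates. On that array 893 genes lay over 2-fold below the mean of the other arrays, against 30 to 43 on the rest. Keratinocyte markers were bright on every array, with summed intensities of 89462 and 89927 for 8 markers in controls against 76692 and 75260 in Ovol2 BT skin. Fibroblast markers were bright as well, with summed intensities of 48196 and 46268 for 6 markers in controls against 49332 and 43887 in Ovol2 BT skin. Both cell types of skin were thus read in all samples.

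Ovol2 rose in Ovol2 BT skin and was the only 1 of the 9 members tested to pass the test. Its deposited intensity was 176 and 297 in controls against 7798.5 and 7949 in Ovol2 BT skin. The groups lie far apart, and both Ovol2 BT arrays are at nearly the same level. On the log2(intensity + 16) scale used below, where 16 damps the noise of dim probe sets, Ovol2 rose by 5.01 with an SE of 0.27 over 2 arrays in each group (limma adjusted p = 0.0253). The 95% confidence interval ran from 4.33 to 5.69, that is from 20.1-fold to 51.5-fold. Over all genes tested, 4 (0.0268%) passed at an adjusted p under 0.05, 0.0201% higher and 0.00669% lower, and after quantile normalisation 5 did, 3 higher and 2 lower. The call of Ovol2 was lost, at an adjusted p of 0.0590, in limma with a variance that does not follow intensity, where no gene passed and 601 had an unadjusted p under 0.05.

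The control arrays themselves differed in Ovol2. Control replicate 2 was 0.70 above replicate 1 on the log2 scale, and only 2.0% of all genes tested had a larger gap between the control arrays. Per the treatment protocol the controls were carriers of TRE-Ovol2-Flag alone or wild type embryos. The sources used here do not tell which embryos went to which array. The gap is small beside the difference between genotypes: without control replicate 1 the log2 fold was 4.66, and without control replicate 2 it was 5.36. Endogenous and transgenic Ovol2 RNA were not separated.

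**Figure D1:**
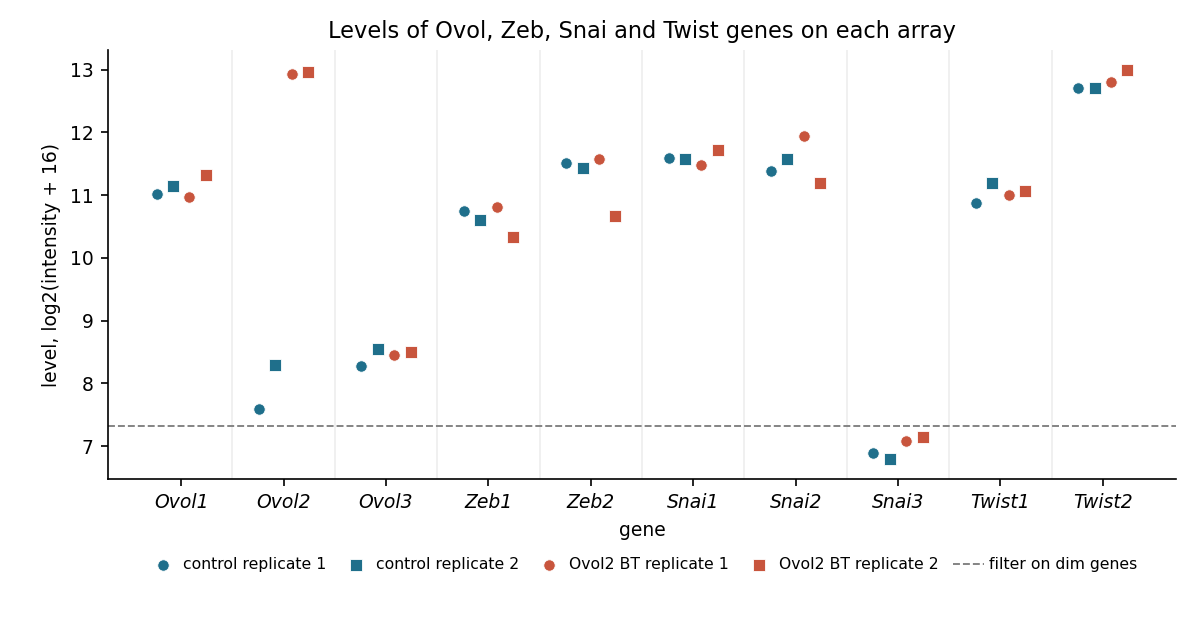
Level of each of the 10 genes on the log2(intensity + 16) scale, 1 point per array, with controls in blue and Ovol2 BT in red (circles replicate 1, squares replicate 2). The dashed line is the level of 7.32 under which a gene's mean level kept it out of the test. Ovol2 separates the groups by 5.01, Zeb2 is low on Ovol2 BT replicate 2 alone, and Snai3 lies under the dashed line on all arrays. Heights of different genes cannot be compared, since probe sets differ in brightness.

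The other 2 Ovol genes showed no change past the test. Ovol1, a close relative that acts in differentiating epidermis and in the germ line, had intensities of 2055 and 2257 in controls against 1991 and 2540 in Ovol2 BT skin. The groups overlap, with the lowest and the highest value both on Ovol2 BT arrays. Its log2 fold was 0.062, with a 95% interval from -0.40 to 0.52 (limma adjusted p = 0.959). Ovol3, the least studied of the family, had intensities of 294 and 356 in controls against 332 and 348 in Ovol2 BT skin, so both Ovol2 BT values lie between the controls. Its log2 fold was 0.067, with an interval from -0.38 to 0.52 (limma adjusted p = 0.954). For both genes the interval thus reaches from 0.758-fold (Ovol1) and 0.766-fold (Ovol3) up to 1.44-fold and 1.43-fold, well short of the fold of Ovol2.

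Zeb1 and Zeb2, zinc finger and homeodomain repressors of E-cadherin, were high on Ovol2 BT replicate 1 and low on replicate 2. Zeb1, which Ovol proteins are known to repress, had intensities of 1697 and 1541 in controls against 1787 and 1271 in Ovol2 BT skin. The Ovol2 BT arrays enclose the controls. Its log2 fold was -0.10, with an interval from -0.66 to 0.46 (limma adjusted p = 0.945). Zeb2 had intensities of 2891 and 2740 in controls against 3036 and 1608 in Ovol2 BT skin. A single array, Ovol2 BT replicate 2, sets the group's mean, since its Zeb2 intensity was 47.1% below that of replicate 1 while the controls lay close together. The log2 fold of Zeb2 was -0.35, with an interval from -1.12 to 0.43 (limma adjusted p = 0.906).

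Leaving out either Ovol2 BT array turned the Zeb genes in opposite directions. Without Ovol2 BT replicate 1 the log2 fold of Zeb2 was -0.80 and passed (limma adjusted p = 0.00387), in a fit where 16.4% of all genes passed and the spread of the single remaining Ovol2 BT array is borrowed from the controls. Without Ovol2 BT replicate 2 it was 0.11 (limma adjusted p = 0.886), in a fit where 0.716% of all genes passed. Zeb1 was -0.34 without Ovol2 BT replicate 1 and 0.14 without replicate 2, with limma adjusted p of 0.167 and 0.873. The gap between the Ovol2 BT arrays in Zeb2 was -0.91, and 8.54% of all genes tested had a larger gap in either direction.

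Markers of mesenchymal, melanocytic and myeloid cells were not all low on that array. Of the melanocyte markers, Mitf and Tyr differed by -0.77 and -0.70 (log2, Ovol2 BT replicate 2 minus replicate 1). Tyrp1 differed by -0.17, Dct by -0.023, Mlana by 0.020 and Pmel by 0.49. The summed intensity of 6 melanocyte markers was 4992 and 5824 in controls against 4514 and 4490 in Ovol2 BT skin. The 6 macrophage markers had sums of 6740 and 6228 in controls against 7801 and 8554 in Ovol2 BT skin. In 5 of the 6 the highest level was on the array with the lowest Zeb2, but Mrc1 was lowest there, at a log2 level of 10.11 against 10.54 to 10.89 on the rest. Among fibroblast genes, Lum was -0.80 and Dcn -0.36 on replicate 2 against replicate 1. Pdgfra was -0.11, Dpt -0.068, Col3a1 0.049 and Col1a1 0.063 in the same comparison. Their part in the Zeb2 values was not tested.

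The miR-200 family is shown because its members silence Zeb1 and Zeb2, and because 4 of its hairpins have a probe set of their own on these arrays. The mature sequences below are from RefSeq (GRCm38.p6), 5′ to 3′, with the seed (bases 2 to 8) in capitals, and all lie on the minus strand. They form a group with the seed AAUACUG (miR-200b, miR-200c and miR-429) and a group with the seed AACACUG (miR-200a and miR-141).
miR-200b-3p, chr4:156055685-156055706: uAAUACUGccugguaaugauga
miR-200c-3p, chr6:124718324-124718346: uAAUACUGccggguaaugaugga
miR-429-3p, chr4:156053916-156053937: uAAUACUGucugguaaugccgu
miR-200a-3p, chr4:156054911-156054932: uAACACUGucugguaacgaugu
miR-141-3p, chr6:124717917-124717938: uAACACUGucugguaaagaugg

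The hairpin probe sets read precursor or primary transcripts and not the mature arms, and the one for Mir429 is shared with another gene and is not reported. They were looked at after the values of the Zeb genes were seen. Mir200c was the only 1 of the 4 hairpins bright enough to be tested, with intensities of 179.8 and 228 in controls against 240.5 and 194 in Ovol2 BT skin. Its groups overlap and its log2 fold was 0.086, with an interval from -0.39 to 0.57 (limma adjusted p = 0.945). Mir200b, under the level for testing, had intensities of 79.3 and 238 in controls against 238 and 88.6 in Ovol2 BT skin, so its gaps within each group (1.41 and -1.28 on the log2 scale) far exceed the difference of 0.069 between the genotypes. Mir200a ranged from 95.9 to 172 and Mir141 from 51.2 to 71.2 over the 4 arrays, also with overlapping groups.

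The Snai genes, zinc finger repressors that share the E-box as a target with the Zeb proteins, did not pass the test either. Snai1 had intensities of 3062 and 3055 in controls against 2833 and 3358 in Ovol2 BT skin. The controls were almost equal, and the Ovol2 BT arrays lay on either side of them. Its log2 fold was 0.012, with an interval from -0.35 to 0.38 (limma adjusted p = 0.990), and -0.016 after quantile normalisation. Snai2, also called Slug, a factor of neural crest and of basal and wounded epidermis, had intensities of 2656 and 3038 in controls against 3934 and 2324 in Ovol2 BT skin. It had the highest value on Ovol2 BT replicate 1 and the lowest on Ovol2 BT replicate 2. Its log2 fold was 0.090, with an interval from -0.58 to 0.76 (limma adjusted p = 0.959), and it was 0.47 without Ovol2 BT replicate 2 and -0.29 without replicate 1.

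Snai3, which is most studied in lymphocytes and muscle, was too dim to be tested, at 102 and 94.6 in controls against 119 and 126 in Ovol2 BT skin. Both Ovol2 BT values exceed both controls, by 0.27 on the log2 scale. In limma on all 19938 genes without the filter on dim genes the interval was -0.09 to 0.63 (adjusted p = 0.924). With an offset of 64 in place of 16 the log2 fold was 0.20.

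The Twist genes encode basic helix-loop-helix factors of mesenchyme, and Twist2, also called Dermo1, is typical of fetal dermis. Twist1 had intensities of 1856 and 2323 in controls against 2042 and 2121 in Ovol2 BT skin. The controls enclose the Ovol2 BT values. Its log2 fold was 0.00306, with an interval from -0.44 to 0.45 (limma adjusted p = 0.998), and turned to -0.00318 after quantile normalisation. Twist2 had intensities of 6643 and 6661 in controls against 7174 and 8163 in Ovol2 BT skin. Its groups did not overlap, and its log2 fold was 0.20 (SE 0.10), with the narrowest interval of the members tested, from -0.04 to 0.44 (unadjusted p = 0.0828, limma adjusted p = 0.906). Without Ovol2 BT replicate 2 it was 0.11, and without replicate 1 it was 0.29. The fibroblast markers Dcn, Lum and Dpt had log2 folds of -0.10, -0.24 and 0.081 in the same samples, and the list of 6 a median of -0.018.

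**Figure D2:**
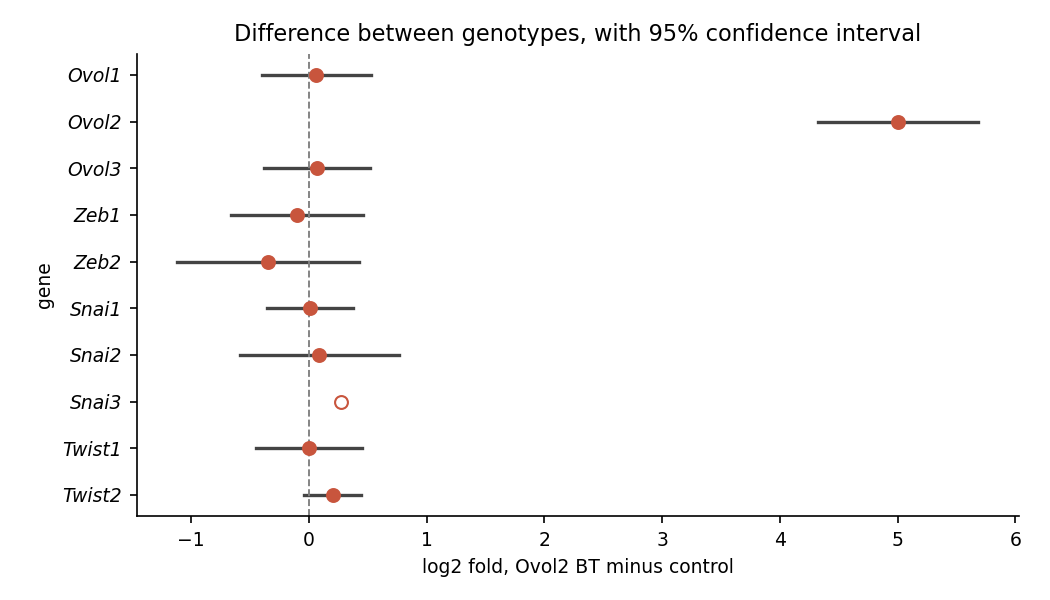
Log2 fold (Ovol2 BT minus control) of each of the 10 genes with its 95% confidence interval from limma over 2 arrays per group. Ovol2 lies at 5.01, the intervals of the other 8 genes tested include 0, and Snai3 (open circle, 0.27) was not tested and has no interval here.

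Seen together, the 8 members tested besides Ovol2 had log2 folds between -0.35 and 0.20, and each interval included 0. The median over the 9 members tested was 0.062, against 0.026 over all genes tested. At an unadjusted p under 0.05 in limma only Ovol2 counted, against 4.23% of all genes (2.49% higher and 1.74% lower). The groups did not overlap for 2 of the 9, Ovol2 and Twist2, both higher, while this was so for 34.2% of all genes tested (20.1% higher and 14.1% lower). In 6 of the 8 the Ovol2 BT arrays lay on opposite sides of the control mean, as did 46.4% of all genes. In 6 of the 8 the gap between the Ovol2 BT arrays was larger than the difference between the genotypes, as in 71.9% of all genes. The intervals still allow changes down to -1.12 for Zeb2 and up to 0.76 for Snai2, so a p that misses the threshold does not show equal levels.

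**Figure D3:**
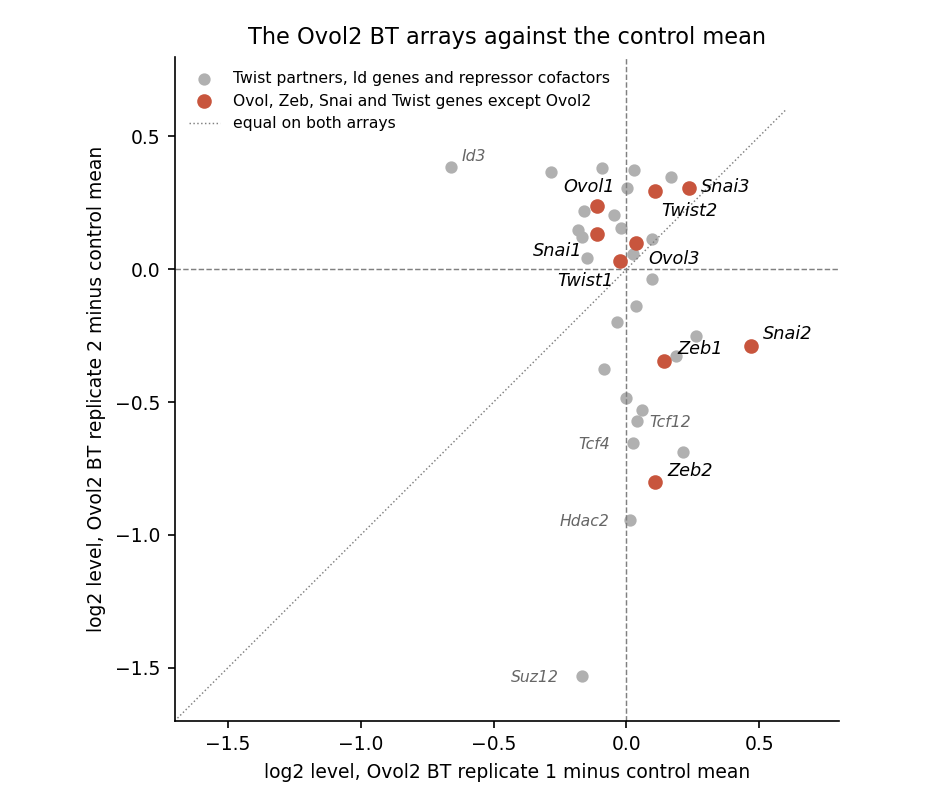
Log2 level on Ovol2 BT replicate 1 (horizontal axis) and replicate 2 (vertical axis), each minus the mean of the control arrays, for the members except Ovol2 (red) and for tested Twist partners, Id genes and repressor cofactors (grey). Zeb1, Zeb2 and Snai2 lie right of 0 and under 0, at 0.14, 0.11 and 0.47 on replicate 1 and at -0.34, -0.80 and -0.29 on replicate 2; Suz12 lies lowest.

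Genes were ranked by how like Ovol2 their profile over the 4 arrays was. By Pearson's r with Ovol2, among 216 genes tested with an absolute log2 fold of 1 or more, the top 5 were Lce1k (r = 0.997), Cldn6 (0.995), Lce3e (0.995), Sprr2d (0.995) and Slc5a5 (0.994). Lce1k, Lce3e and Sprr2d encode proteins of the cornified envelope, Cldn6 a claudin and Slc5a5 the iodide transporter. Their log2 folds were 1.09, 2.63, 1.22, 1.63 and 1.74, and none passed, with limma adjusted p between 0.0945 and 0.246. An r over 4 arrays in 2 groups is near 1 for any gene that separates the groups cleanly with higher levels in Ovol2 BT skin. Of the 216 genes, 41 had an r over 0.9, a count that leaves out genes lower in Ovol2 BT skin. The 5 were chosen for a large fold along the same split of the arrays, so their folds are a description, and Slc5a5 exceeded the level for testing only through the Ovol2 BT arrays (mean log2 level 7.15 in controls and 8.90 in Ovol2 BT skin).

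Genes reported elsewhere as targets of Ovol proteins had no call in limma. Of 7 such genes, 6 were measured here and tested, 0 passed, 0 had an unadjusted p under 0.05, and their median log2 fold was 0.024. Over all genes tested in limma, 0.0268% passed and 4.23% had an unadjusted p under 0.05. Counts of 0 in this list and those below thus say little about their genes. Myc, a growth regulator, read 11.40 and 11.47 in controls against 11.46 and 11.56 in Ovol2 BT skin (log2 levels), a log2 fold of 0.076 with an interval from -0.26 to 0.42. Id2, an inhibitor of helix-loop-helix factors, had a log2 fold of 0.029 (-0.24 to 0.30), and Notch1, a receptor of epidermal differentiation, had 0.17 (-0.27 to 0.62). The intermediate filament gene Vim, read mostly from mesenchymal cells, had -0.0055 (-0.15 to 0.14) and 0.026 with median centring.

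Partners of the Twist proteins and cofactors through which Snai and Zeb repress had folds on both sides of 0. Of 9 E proteins, Id and Hand genes 8 were tested, 0 passed in limma, 0 had an unadjusted p under 0.05, and the median log2 fold was -0.021. The E protein genes Tcf4 and Tcf12 had log2 folds of -0.32 and -0.27, Tcf3 had 0.15 (0.0037 without Ovol2 BT replicate 2) and Hand1 0.26. Of 19 repressor cofactors, all tested, 0 passed in limma, 0 had an unadjusted p under 0.05, and the median was -0.023. Ctbp1, the corepressor of Zeb proteins, had 0.066 and Kdm1a, the histone demethylase that binds the SNAG domain of Snai1, had -0.054. The largest folds were those of the Polycomb genes Suz12 (-0.85) and Ezh2 (-0.24) and of the deacetylase gene Hdac2 (-0.46). Like Zeb2, several of these rested on a single array: Suz12 was -1.36, Hdac2 -0.96, Tcf4 -0.68, Tcf12 -0.61 and Ezh2 -0.48 on Ovol2 BT replicate 2 against replicate 1. Other genes of both lists were higher on Ovol2 BT replicate 2 than on replicate 1, among them Id3 (1.04), Id1 (0.65), Wtip (0.47) and Fbxl14 (0.38). With Ovol2 BT replicate 1 left out, Suz12 stood at -1.53, Hdac2 at -0.94, Tcf4 at -0.65, Tcf12 at -0.57 and Ezh2 at -0.49. With Ovol2 BT replicate 2 left out the 5 stood at -0.17, 0.015, 0.024, 0.040 and -0.0010.

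Other transcription factors of mesenchymal transition had mostly negative folds, 9 of 12, and no call. Of 14 listed, 12 were tested and 0 passed in limma. At an unadjusted p under 0.05 there were 2, against 4.23% of all genes tested, and the median was -0.14. Lef1, the nuclear partner of Wnt signalling, read 11.29 and 11.40 in controls against 10.54 and 11.02 in Ovol2 BT skin (log2 fold -0.57, limma adjusted p = 0.906). Sox9, a factor of hair follicle stem cells and neural crest, read 10.52 and 10.69 in controls against 11.13 and 11.20 in Ovol2 BT skin (log2 fold 0.56, limma adjusted p = 0.901). Foxq1 had a log2 fold of -0.45. Lef1 had -0.81 without Ovol2 BT replicate 2 and -0.33 without replicate 1, and Sox9 had 0.53 and 0.60.

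Mesenchymal products and TGF-beta genes, which act below and above these factors, did not pass in limma either. Of 26 mesenchymal effectors 24 were tested, 0 passed, 0 had an unadjusted p under 0.05, and the median log2 fold was 0.039. In 9 of the 24 the Ovol2 BT arrays were both above both controls, against 20.1% of all genes tested. In 1 of the 24 both lay below both controls, against 14.1%. The cadherin Cdh2 had 0.094 (0.0017 to 0.19 with 1 array left out), the matrix gene Fn1 0.13 (interval -0.02 to 0.29), and the largest folds were those of Fap (-0.61), Postn (-0.37) and Mmp9 (0.34). Of 12 TGF-beta genes, all tested, 0 passed, 0 had an unadjusted p under 0.05, and the median was -0.058, with Tgfbr1 at -0.89, Tgfb1 at 0.38 and Skil at -0.35. On Ovol2 BT replicate 2 against replicate 1, Tgfbr1 was -1.80, Skil -1.13, Fap -1.01 and Postn -0.92, gaps of the same sign as that of Zeb2. Other genes of both lists had gaps of the opposite sign, among them Mmp9 (0.84), Tnc (0.55), Acta2 (0.54), Tgfb3 (0.41) and Smad3 (0.38). When Ovol2 BT replicate 1 was dropped, the log2 folds were -1.79 for Tgfbr1, -0.92 for Skil, -1.12 for Fap and -0.83 for Postn. In the same fit Mmp9 stood at 0.76 and Tgfb1 at 0.54. With Ovol2 BT replicate 2 dropped, the 6 genes stood, in the same order, at 0.012, 0.22, -0.11, 0.091, -0.079 and 0.21. The mean level of Mmp9 exceeded the filter only through Ovol2 BT replicate 2, at 8.08 against 7.22 to 7.42 on the rest (log2 levels). Its folds are thus a description.

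Epithelial transcription factors, which oppose the Zeb and Snai genes, had mostly negative folds, 12 of 14, and no call. Of 15 listed, 14 were tested and 0 passed in limma. At an unadjusted p under 0.05 there were 3, all lower, against 1.74% lower over all genes tested. The median was -0.19 against 0.026 over all genes. In 9 of the 14 the Ovol2 BT arrays were both below both controls, against 14.1% of all genes tested, and in 0 of the 14 both above, against 20.1%. Grhl2, which activates Cdh1 and Ovol2 in other epithelia, read 9.66 and 9.86 in controls against 9.07 and 9.07 in Ovol2 BT skin, a log2 fold of -0.68 (limma adjusted p = 0.853). Tfap2c had -0.96 and Elf5 -0.79, with limma adjusted p of 0.798 and 0.789. Grhl3, Esrp1 and Trp63 had smaller folds of -0.14, -0.15 and -0.21, each with an interval that includes 0. Without Ovol2 BT replicate 1 the log2 folds of Grhl2, Tfap2c and Elf5 were -0.69, -0.66 and -0.86. Without replicate 2 they were -0.68, -1.25 and -0.71. Among 8 keratinocyte markers, Krt5, whose promoter drives the transactivator, and Krt14 had log2 folds of -0.87 and -0.66 in the same samples. Their limma adjusted p were 0.0597 and 0.432. The rest of these markers lay between -0.21 (Trp63) and -0.012 (Sfn), and the median of the list was -0.12. With 1 array left out Krt5 ranged from -0.91 to -0.83 and Krt14 from -0.79 to -0.53. The part of Krt5 and Krt14 in the values of the epithelial factors was not tested.

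Junction and polarity genes that Snai and Zeb proteins are known to repress had folds on both sides of 0. Of 25 listed, 24 were tested, 0 passed in limma, and the median was 0.036. At an unadjusted p under 0.05 there were 4 (1 higher, 3 lower), against 4.23% of all genes tested (2.49% higher, 1.74% lower). Cdh1, the epithelial cadherin, had a log2 fold of 0.071 (interval -0.22 to 0.36), and the adhesion molecule Epcam had -0.11 (-0.58 to 0.37). Crb3, an apical polarity protein, read 8.09 and 8.20 in controls against 8.78 and 9.16 in Ovol2 BT skin, a log2 fold of 0.82 (interval 0.31 to 1.33, limma adjusted p = 0.765). Its partner Patj had -0.57 and the tight junction gene Marveld3 -0.45. Crb3 stood at 1.01 without Ovol2 BT replicate 1 and at 0.63 without replicate 2.

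The E-box CACCTG, to which Snai and Zeb proteins bind, and the Ovol recognition sequence CCGTTA were searched on both strands (CAGGTG and TAACGG in reverse) in RefSeq promoter windows of 300 bases (GRCm38.p6), which run from 250 bases before to 50 after a gene's start. Among the windows below, Snai1 is shown because it alone among the 6 members with a window holds an E-box there. Crb3 is shown because it had the largest fold of the junction genes and holds both motifs. Elf5 and Epcam, with log2 folds of -0.79 and -0.11 that did not pass in limma, are further examples. Each line gives 30 bases, 5′ to 3′ along the gene's strand (plus for all), with the match in capitals.
Snai1, chr2:167538057-167538086: gcagcccaggcgCACCTGctccggtctcag
Crb3, chr17:57062071-57062100: cccctgtgcttaCACCTGctcatttccgcc
Crb3, chr17:57062126-57062155: gggttcccgttaCAGGTGctctggcggcgc
Crb3, chr17:57062120-57062149: gcaatggggttcCCGTTAcaggtgctctgg
Elf5, chr2:103411931-103411960: aggaccctgctaCACCTGggaggctgctta
Epcam, chr17:87635780-87635809: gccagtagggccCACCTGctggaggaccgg

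Of the members, 6 had a window in the table (Ovol2, Ovol3, Zeb2, Snai1, Twist1 and Twist2), with 9 windows in all. The E-box was found in 1 of the 9, against 20.2% of all 32851 windows, and the Ovol sequence in 0 of the 9, against 2.76% of all. Among junction genes the E-box was found in 17 of 24 windows (70.8%) of 17 genes, and the Ovol sequence in 2, both of Crb3, where it is followed directly by an E-box. Windows of a gene with several starts overlap and share their matches. Among epithelial factors 4 of 10 windows held the E-box, those of Elf3, Elf5 and Grhl3. A match describes these letters only.

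**Figure D4:**
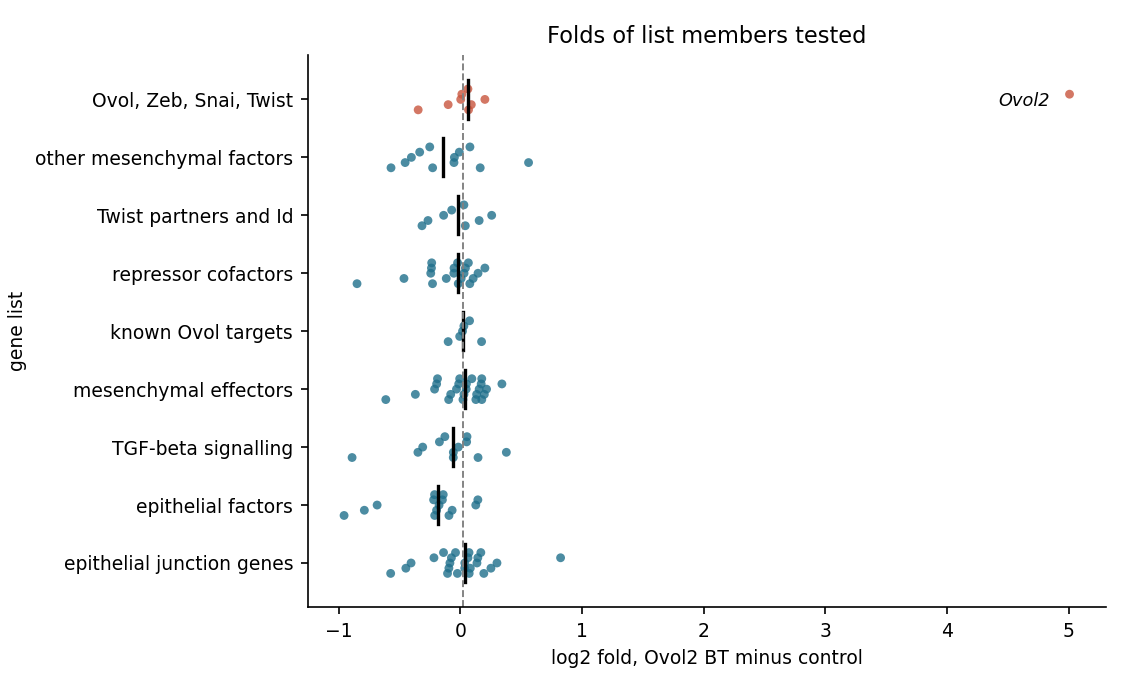
Log2 fold (Ovol2 BT minus control) of every gene tested among the members and in 8 gene lists, markers of cell types not included, 1 point per gene, with the list's median as a black bar and the median over all genes tested (0.026) as the dashed line; points are spread vertically for legibility. Apart from Ovol2 at 5.01, all points lie between -0.96 (Tfap2c) and 0.82 (Crb3), and the epithelial factors have the lowest median of the lists plotted, -0.19.

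Other cell types that contribute these factors to whole skin differed between arrays of the same genotype. The 7 muscle markers had summed intensities of 44744 and 25812 in controls against 24739 and 47561 in Ovol2 BT skin, so the high and low arrays fall in both groups. The log2 folds of Myog, Myh3 and Tnnt3 were 0.32, 0.095 and 0.079. Erythroid genes were highest on Ovol2 BT replicate 2, the array with low Zeb2, with Alas2 at a log2 level of 13.34 against 11.26 to 12.36 on the rest, and log2 folds of 0.66 for Alas2 and 0.46 for Slc4a1. With Ovol2 BT replicate 1 left out the log2 folds of Alas2 and Slc4a1 were 1.53 and 1.498, and with replicate 2 left out -0.21 and -0.57. Summed intensities of the lists of 6 endothelial, 5 pericyte and 4 measured of 6 Schwann cell genes ranged from 12350 to 13166, 11083 to 11830 and 3706 to 4133 in controls and from 12847 to 13788, 10428 to 12900 and 3387 to 3840 in Ovol2 BT skin. Endothelial (Cldn5 0.18, Emcn -0.14, Pecam1 0.11), pericyte (Pdgfrb 0.18, Myh11 -0.13, Rgs5 -0.12) and Schwann cell genes (Erbb3 -0.17, Foxd3 0.16, Sox10 -0.000207) had small log2 folds. Among macrophage markers Lyz2 (0.63), Cd68 (0.51) and Csf1r (0.42) had the largest folds, but Mrc1 had -0.16. Among melanocyte markers these were Tyr (-0.82), Mitf (-0.45) and Dct (-0.34), while Tyrp1 had 0.065 and Mlana 0.017. The list medians were 0.40 and -0.26, and 0 of the 12 passed in limma. In each list 1 gene had an unadjusted p under 0.05, against 4.23% of all genes tested. In the fit lacking Ovol2 BT replicate 1, Lyz2 stood at 0.84, Csf1r at 0.62, Tyr at -1.17 and Mitf at -0.84. Lum stood at -0.64 and Dcn at -0.28 there. In the fit lacking replicate 2 these genes stood, in the same order, at 0.43, 0.22, -0.47, -0.063, 0.16 and 0.085. No defining marker of these lists was at 0, and the part of these cells in the members' values was not tested.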

How the data were processed

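RNA of whole E16.5 skin from 2 control and 2 Ovol2 BT samples was read on Affymetrix arrays. Each probe set has 1 deposited linear intensity per array. The submitters' processing notes name PLIER 2.0 and Affymetrix Expression Console 1.1.1 as the authors' tools. How arrays were normalised to each other, and the genome build, is not given in the sources used here. Of 35557 probe sets, 21789 have 1 gene symbol, 1621 several and 12147 none listed; symbols of 21698 were updated through Entrez numbers to the RefSeq table of GRCm38.p6. The number of arrays limits the precision, and p-values measure the spread between these arrays.

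Values were taken to log2(intensity + 16) with no further normalisation. The brightest probe set stood for a gene with several (999 genes, no member). Genes under the 25th percentile of mean level (7.32, an intensity of 144) were left out, which removed Snai3 and kept 14953. limma 3.58.1 in R 4.3.3 (lmFit, eBayes with an intensity trend, 2 residual and 3.45 prior degrees of freedom) gave two-sided p-values with Benjamini-Hochberg adjustment over all genes tested. An exact permutation test of 2 against 2 cannot go below p = 0.333 and was not used. The steps were tested on simulated data.

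The 10 members, the 17 gene lists and the alternatives were chosen with earlier results of these data known. The rule for other genes named was 15 fixed names, called list members or otherwise the 3 largest folds of a list, and the 5 genes most like Ovol2. The miR-200 hairpins and promoter windows were chosen after values were seen. Of the list genes, 12 had no probe set with a single symbol and were not analysed here. Alternatives were a replicate block, offsets of 1 and 64, median centring or quantile normalisation, the 50th percentile or no filter, the mean of probe sets, no intensity trend and leaving out each array.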

Additional observations from a re-analysis of the deposited data

How the results depend on the processing

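With 2 arrays a group, signal and array number limit what can be seen. The count of genes called was 4, and became 10 with median centring, 0 without an intensity trend, 9 with the replicate block, and 4 to 2453 when an array was left out, the highest with Ovol2 BT replicate 1 left out (7 lacking control replicate 1 and 107 lacking Ovol2 BT replicate 2). Members called became 0 without an intensity trend, where Ovol2 kept its log2 fold of 5.01 but not its call, and were 1 to 2 when an array was left out. The Ovol2 log2 fold lay between 4.66 and 5.36 without 1 array and passed in each of those fits.

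The labels number the replicates alike in both groups, and over genes the deviations of same-numbered arrays correlated at -0.17. Ovol2 BT replicate 2 was least like the rest, so this r cannot show whether the numbers pair the arrays. The replicate block (9 genes called) and a crossed replicate block, chosen after seeing the data (5 genes called), both kept 1 member called.

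Near 0 the sign is not settled. Signs turned for Snai1 (-0.016) and Twist1 (-0.00318) with quantile normalisation, for Vim (0.026) with median centring, and for Sox10 with quantile normalisation (0.021), median centring (0.031) and the offset of 64 (0.000469). Leaving out 1 array gave ranges that cross 0 for Ovol1 (-0.11 to 0.24), Ovol3 (-0.064 to 0.20), Zeb1 (-0.34 to 0.14), Zeb2 (-0.80 to 0.11), Snai1 (-0.11 to 0.13), Snai2 (-0.29 to 0.47) and Twist1 (-0.16 to 0.16). The same held for Cdh1 (-0.032 to 0.17), Vim (-0.053 to 0.042), Id2 (-0.037 to 0.10), Notch1 (-0.013 to 0.36), Ctbp1 (-0.030 to 0.16), Kdm1a (-0.15 to 0.042), Tcf4 (-0.65 to 0.024), Tcf12 (-0.57 to 0.040), Hdac2 (-0.94 to 0.015), Postn (-0.83 to 0.091), Mmp9 (-0.079 to 0.76), Tgfbr1 (-1.79 to 0.012) and Skil (-0.92 to 0.22). Among marker genes it held for Lum (-0.64 to 0.16), Dcn (-0.28 to 0.085), Dpt (-0.000742 to 0.16), Cldn5 (-0.034 to 0.39), Pecam1 (-0.041 to 0.26), Foxd3 (-0.030 to 0.35), Sox10 (-0.22 to 0.22), Alas2 (-0.21 to 1.53), Slc4a1 (-0.57 to 1.498), Myog (-0.20 to 0.84), Myh3 (-0.31 to 0.50), Tnnt3 (-0.42 to 0.58), Myh11 (-0.30 to 0.041) and Rgs5 (-0.56 to 0.31). Ranges that kept their sign but came close to 0 were those of Cdh2 (0.0017 to 0.19), Tcf3 (0.0037 to 0.31) and Ezh2 (-0.49 to -0.0010). The cause was not tested. Krt5 passed in limma with quantile normalisation, the 50th percentile filter and both blocks, where its adjusted p lay between 0.0291 and 0.0465. It did not pass in the main fit (limma adjusted p = 0.0597) or in the other fits that kept every array.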
